A study of Mus musculus with 8 samples.

Results

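Fluid transport across the lung lining was followed here through 9 genes: the water channels Aqp1, Aqp3, Aqp4 and Aqp5, the epithelial sodium channel subunits Scnn1a, Scnn1b and Scnn1g, the sodium pump subunit Atp1b1 and the chloride channel Cftr. All probe sets that carried 1 of these symbols alone were taken, which gave 19 probe sets for the 9 genes, of 34939 probe sets and 18191 named genes on the array. The main value of a gene was that of the probe set whose mean over all arrays was highest. To be tested, a probe set had to reach the array median on 2 or more arrays. All 9 main probe sets did, as did 13 of the 19 probe sets and 13854 of the 18191 genes. Aqp3 met it on 3 arrays alone (both of PF68 day 1 and 1 of SWCNT day 7), the other 8 genes on all 8 arrays.

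Total RNA from lobe 1 of the right lung was measured on 8 arrays, in male ICR mice aged 5 to 6 weeks. Mice of the SWCNT day 1 and SWCNT day 7 groups were given single-walled carbon nanotubes (SWCNT) into the trachea once, 0.5 mg per mouse, suspended in 50 µl of a 0.1% solution of the surfactant Pluronic F-68 (PF68). The PF68 day 1 and PF68 day 7 mice received the surfactant without tubes. All groups share pentobarbital anaesthesia, the neck incision and the instilled PF68, so none is an untouched lung. There were 2 arrays per group, called biological replicates in the labels. No animal is named for an array, and whether an array held 1 animal or several is not given in the sources used here, so the p-values cover the spread between arrays alone, and that spread may be technical. Array number limits the precision throughout.

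Sodium leaves the fluid of the air spaces through the epithelial sodium channel on the apical side of lung epithelial cells, and the sodium pump in the basolateral membrane moves it on towards the blood. Water follows the salt, in part through aquaporins, and chloride moves with it through channels that include Cftr. Removal of fluid from the air spaces rests on this route at birth and in the injured lung.

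All signals below are log2 values as deposited, on which the median of every array was -0.628, and all differences are log2 differences of group means. An adjusted p under 0.05 counts as a call. RNA quality and added spikes differed between the groups. For actin the gap between its 3′ and 5′ probe sets, larger where RNA is shortened, was 1.31 and 1.36 on the SWCNT day 1 arrays, 2.04 and 2.01 on the PF68 day 1 arrays, 2.99 and 2.94 in SWCNT day 7 and 3.29 and 3.25 in PF68 day 7. SWCNT minus PF68, the mean signal of 18 bacterial spike probe sets differed by 0.22 on day 1 and by -0.53 on day 7. When arrays are scaled to these spikes, the median gene differs by -0.24 on day 1 and 0.55 on day 7, against -0.02 and 0.02 as deposited. Their part in the results below was not tested beyond that scaling, whose values for the 9 genes are given where it turns a direction printed here or brings a difference between SWCNT and PF68 past the threshold. Marker lists of alveolar epithelium and of endothelium held 12 genes for alveolar type 1 cells, 12 for endothelium and 11 measured ones for alveolar type 2 cells. All of them lay above the array median on at least 1 array of every group. In whole lung tissue, fewer cells of a type and less RNA per cell cannot be told apart.

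Between SWCNT and PF68 lungs, 1 of the 9 genes was called on day 1 and 0 on day 7. On day 1 Aqp4 was higher in SWCNT lungs, and the share of all 13854 genes called was 2.17%, with 0.931% higher and 1.23% lower. On day 7 the share of all genes called was 2.18%. At an unadjusted p under 0.05, limma passed 4 of the 9 on day 1, where 18.6% of all genes passed, and 6 of the 9 on day 7, where 23.1% of all genes passed. Calls depended on the variance model: limma with a variance trend and robust fitting called 4 of the 9 on day 1, where it called 9.05% of all genes, and 7 of the 9 on day 7, where it called 11.7%. In 8 of the 9 genes on day 1 and 7 of the 9 on day 7 the SWCNT arrays and the PF68 arrays did not overlap, which held for 53.2% of all genes on either day. The median difference of the 9 was 0.24 on day 1 and -0.13 on day 7, beside -0.02 and 0.02 over all genes tested. With spike scaling the medians of the 9 were 0.02 and 0.40, so that of day 7 changed sign.

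**Figure D1:**
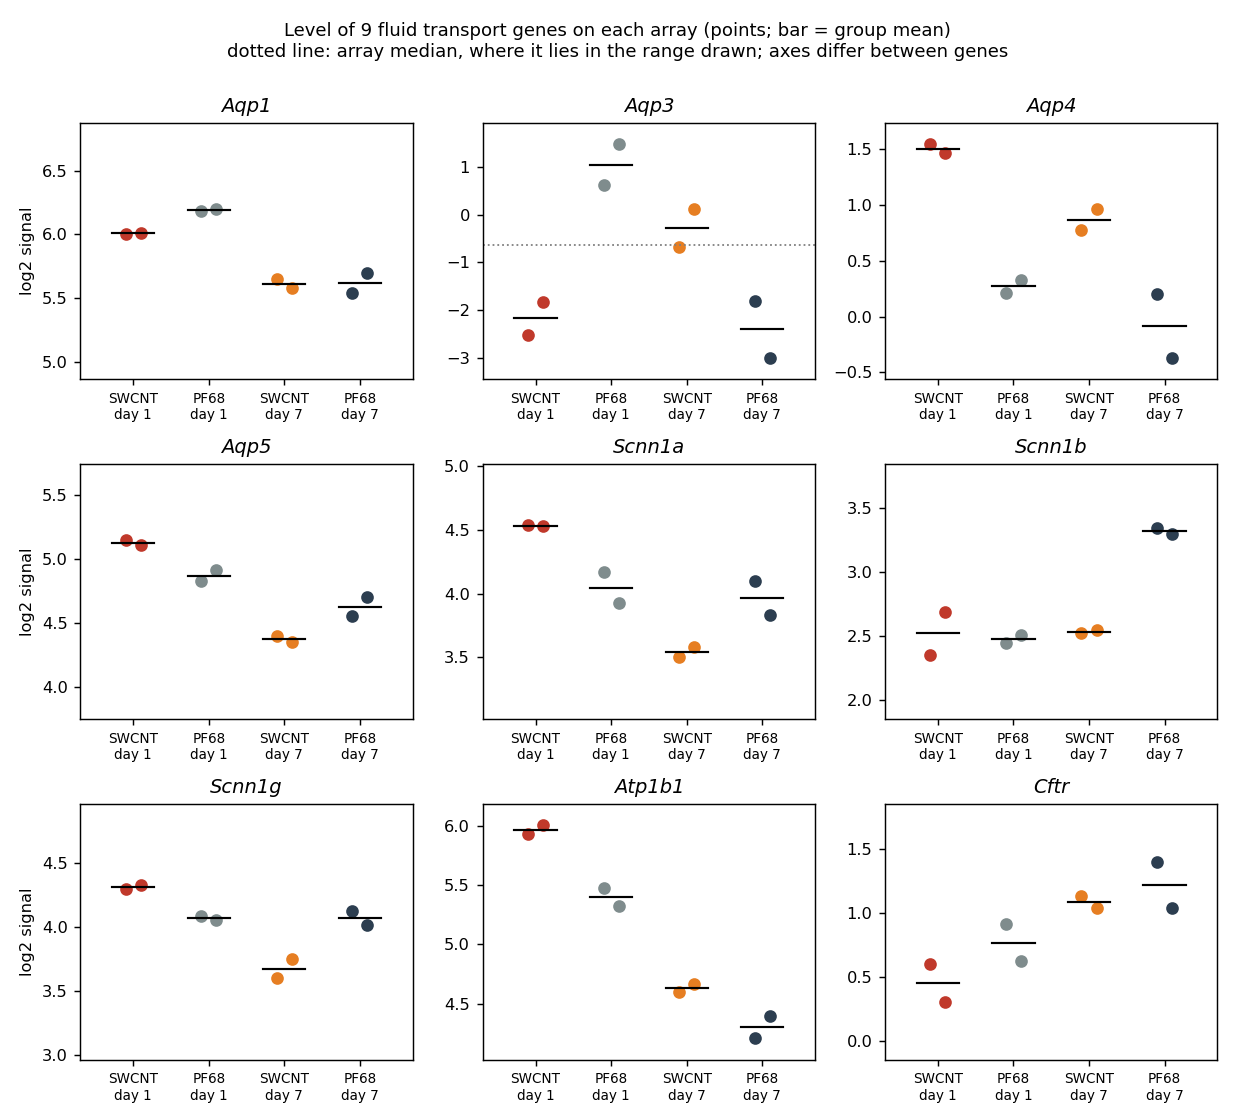
Log2 signal (y axis, its range differs between panels) of the 9 fluid transport genes on each of the 8 arrays, in the groups SWCNT day 1, PF68 day 1, SWCNT day 7 and PF68 day 7 (x axis); points are arrays, bars are group means of 2 arrays and the dotted line is the array median where it falls in the range. Aqp4 was highest on the SWCNT day 1 arrays (1.54 and 1.46), Scnn1b on the PF68 day 7 arrays (3.34 and 3.29), and Atp1b1 was lower on the 4 day 7 arrays than on the 4 day 1 arrays.

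Aqp1, the water channel of lung capillary endothelium, did not pass the test between SWCNT and PF68 lungs on either day. Its signal was 6.01 and 6.01 on the SWCNT day 1 arrays, 6.18 and 6.20 in PF68 day 1, 5.65 and 5.58 in SWCNT day 7 and 5.54 and 5.70 in PF68 day 7. On day 1 both SWCNT arrays lay just below both PF68 arrays, with a difference of -0.18 ± 0.11 (± SE, 2 arrays per group; 95% interval -0.45 to 0.08; limma, adjusted p = 0.438). The groups overlapped on day 7, where the interval of the difference ran from -0.27 to 0.27 (adjusted p = 0.998). Scaled to the spikes, the day 7 difference became 0.53 (adjusted p = 0.0229).

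Aqp5, the apical water channel of alveolar type 1 cells and of airway glands, had 4 groups that did not overlap. It read 5.15 and 5.11 in SWCNT day 1, 4.83 and 4.92 in PF68 day 1, 4.40 and 4.35 in SWCNT day 7 and 4.55 and 4.71 in PF68 day 7. SWCNT lungs therefore held the highest and the lowest of its group levels. Neither difference from PF68 passed: 0.26 ± 0.11 on day 1 (95% interval -0.02 to 0.53; adjusted p = 0.294) and -0.26 ± 0.11 on day 7 (95% interval -0.53 to 0.02; adjusted p = 0.236). The change of that difference between the days (day 7 minus day 1), -0.51 ± 0.16, did not pass either (adjusted p = 0.148), and scaling to the spikes turned it to 0.23 and the day 7 difference to 0.27.

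Aqp4, a water channel found on the basolateral side of airway epithelium and also in brain astrocytes and fast skeletal muscle fibres, was the called gene of day 1. Its signal was 1.54 and 1.46 in SWCNT day 1, against 0.21 and 0.33 in PF68 day 1. The difference was 1.23 ± 0.20, or 2.35-fold if the values are log2 (95% interval 0.73 to 1.74; adjusted p = 0.0499). That value lies at the threshold, and without either SWCNT day 1 array, either PF68 day 1 array or either SWCNT day 7 array the adjusted p was 0.109 to 0.239. With either PF68 day 7 array left out it was 0.0313. On day 7 Aqp4 read 0.77 and 0.96 in SWCNT lungs, against 0.20 and -0.37 in PF68 lungs, again apart. The day 7 difference of 0.95 ± 0.20 did not pass (95% interval 0.44 to 1.45; adjusted p = 0.0733) and passed scaled to the spikes (1.48; adjusted p = 0.0058), and the change of the difference between the days was -0.28 (adjusted p = 0.624; 0.46 scaled to the spikes).

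Muscle and squamous epithelial markers stood higher together with Aqp4 on day 1. The summed linear signal of 12 skeletal muscle markers was 102 to 108 in SWCNT day 1, 6.78 to 7.75 in PF68 day 1, 7.09 to 7.94 in SWCNT day 7 and 6.73 to 8.74 in PF68 day 7. For this list the SWCNT day 7 arrays lay within the range of the PF68 day 7 arrays. The list of 11 squamous and basal epithelial markers summed to 40.3 to 43.4 in SWCNT day 1, 6.00 to 10.3 in PF68 day 1, 4.52 to 15.1 in SWCNT day 7 and 13.4 to 18.0 in PF68 day 7. Below the array median on both arrays of a group were 1 skeletal muscle marker in SWCNT day 1, 8 in PF68 day 1, 9 in SWCNT day 7 and 7 in PF68 day 7, and 1, 6, 7 and 6 squamous markers in the same groups. Part of both lists, Myh1 and Krt4 among them, entered the tests through SWCNT day 1 alone, and no counts of calls are given for these lists.

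Of 10 cardiac muscle markers 6 were higher on day 1, with a median difference of 0.97, and of 8 smooth muscle markers 2 were higher, with a median of 0.78; the share of all genes called higher is the 0.931% given above. The cardiac list summed to 166 to 175 in SWCNT day 1, 74.3 to 79.9 in PF68 day 1, 59.6 to 61.1 in SWCNT day 7 and 50.2 to 52.6 in PF68 day 7. The smooth muscle list summed to 97.7 to 101 in SWCNT day 1, 59.2 to 60.4 in PF68 day 1, 49.5 to 53.5 in SWCNT day 7 and 55.3 to 59.2 in PF68 day 7. The part of these 4 lists in the day 1 call of Aqp4 was not tested. The other probe sets of Aqp4, both below the array median on all arrays, gave 0.62 and 0.09 on day 1 and -0.14 and 0.05 on day 7.

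Aqp3, a channel for water and glycerol that basal cells of the airway carry, lay below the array median on 5 of the 8 arrays and had the widest intervals of the 9 genes. Its signal was -2.51 and -1.82 in SWCNT day 1, 0.61 and 1.47 in PF68 day 1, -0.68 and 0.11 in SWCNT day 7 and -1.80 and -2.99 in PF68 day 7. The arrays of SWCNT and PF68 lay apart on both days, in opposite order. The difference was -3.20 ± 0.54 on day 1 (95% interval -4.53 to -1.87; adjusted p = 0.0507) and 2.11 ± 0.54 on day 7 (95% interval 0.78 to 3.44; adjusted p = 0.0975). Both passed after spike scaling, at -3.42 (adjusted p = 0.0292) and 2.64 (adjusted p = 0.013). As Aqp3 entered the tests through the groups where it is high, its calls are given as a description and support nothing.

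The change of the SWCNT effect between the days passed for Aqp3 and for none of the other 8 genes, where 2.34% of all genes passed, 1.41% with a higher and 0.924% with a lower effect on day 7. It was 5.31 ± 0.76 (95% interval 3.43 to 7.19; adjusted p = 0.0388). With values floored at that median the changes were -1.67 on day 1, 0.37 on day 7 and 2.04 between the days, the last with an adjusted p of 0.0641. With any 1 of the 8 arrays left out the adjusted p was 0.0588 to 0.144. Its other 3 probe sets were below the median on all arrays. Probe set 1447727_at had the signs of the main one, with differences of -0.42 on day 1 and 1.70 on day 7. In 1422008_a_at they were -0.50 and -0.10, and in 1450460_at 0.39 and -0.88, of the opposite sign on both days. At an unadjusted p under 0.05, 5 of the 9 genes passed between the days, where 20.8% of all genes did. After spike scaling limma also passed the change for Aqp1 (0.93, adjusted p = 0.013) and Cftr (0.93, adjusted p = 0.0336). With that scaling 6127 of all 13854 genes passed.

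**Figure D2:**
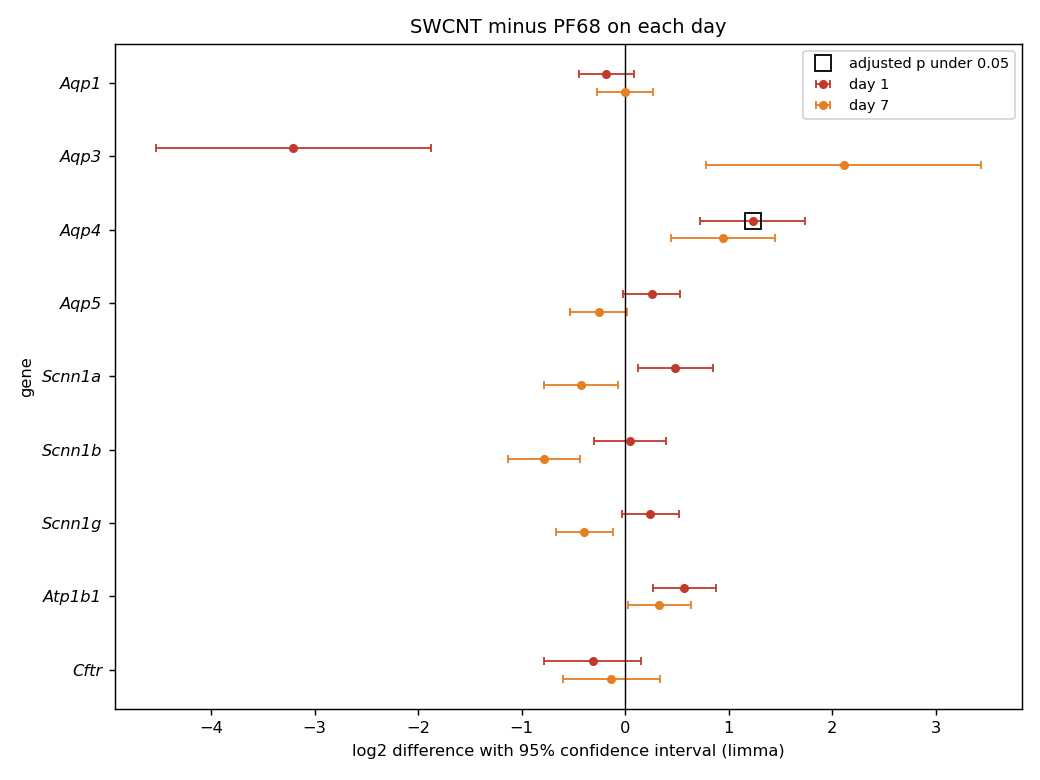
SWCNT minus PF68 log2 difference (x axis) of each of the 9 genes (y axis) on day 1 and on day 7, with the 95% confidence interval of the limma model as a horizontal line and a square around differences with an adjusted p under 0.05. The square stands at Aqp4 on day 1 (1.23), and Aqp3 has the widest intervals and opposite signs on the 2 days (-3.20 and 2.11).

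The order of the group levels differed among the 3 sodium channel subunits. Scnn1a, the alpha subunit without which the channel does not conduct, read 4.53 and 4.53 in SWCNT day 1, 4.17 and 3.92 in PF68 day 1, 3.50 and 3.58 in SWCNT day 7 and 4.10 and 3.83 in PF68 day 7. Scnn1g, the gamma subunit, read 4.30 and 4.33 in SWCNT day 1, 4.09 and 4.06 in PF68 day 1, 3.60 and 3.75 in SWCNT day 7 and 4.13 and 4.02 in PF68 day 7. Both therefore had their highest level in SWCNT day 1 and their lowest in SWCNT day 7, while their PF68 levels on the 2 days overlapped. Scnn1b, the beta subunit, read 2.35 and 2.69 in SWCNT day 1, 2.44 and 2.50 in PF68 day 1, 2.52 and 2.54 in SWCNT day 7 and 3.34 and 3.29 in PF68 day 7. It stood apart in PF68 day 7, the 1 group above the other 3, which overlapped in part.

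On day 1 the difference between SWCNT and PF68 was 0.49 ± 0.15 for Scnn1a (95% interval 0.13 to 0.84; adjusted p = 0.165), 0.24 ± 0.11 for Scnn1g (-0.03 to 0.52; adjusted p = 0.326) and 0.05 ± 0.14 for Scnn1b (-0.30 to 0.39; adjusted p = 0.903). On day 7 it was -0.42 ± 0.15 for Scnn1a (-0.78 to -0.07; adjusted p = 0.163), -0.40 ± 0.11 for Scnn1g (-0.67 to -0.12; adjusted p = 0.113) and -0.78 ± 0.14 for Scnn1b (-1.13 to -0.44; adjusted p = 0.0534). No subunit passed on either day, and on day 7 all 3 had both SWCNT arrays below both PF68 arrays. Scaling to the spikes turned the day 7 values of Scnn1a to 0.10 and of Scnn1g to 0.13 and kept that of Scnn1b below 0, at -0.26 (adjusted p = 0.166). The same scaling turned the day 1 value of Scnn1b to -0.17. Between the days the SWCNT effect changed by -0.91 ± 0.21 for Scnn1a (adjusted p = 0.0838), -0.83 ± 0.20 for Scnn1b (adjusted p = 0.0938) and -0.64 ± 0.16 for Scnn1g (adjusted p = 0.102; 0.11 scaled to the spikes), none past the threshold.

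The beta and gamma subunit genes are neighbours on chromosome 7, with different orders of the group levels. The promoters of both, with those of Aqp5 and Atp1b1, are shown because Aqp5, Scnn1g and Atp1b1 fell together between the days in SWCNT lungs and the difference of Scnn1b was 0.01. The sequences are from RefSeq, assembly GRCm38.p6, and end at the base before the annotated start of the gene, except for Scnn1g. The stretch is chr15:99590778-99591027 on the plus strand for Aqp5, chr7:121734229-121734419 on the plus strand for Scnn1g, chr7:121864788-121865037 on the plus strand for Scnn1b and chr1:164458356-164458605 on the minus strand for Atp1b1. For Scnn1g the 59 bases next to the start, which lie within another transcript of the gene, are left out, so that 191 bases were searched in place of 250. Capitals mark matches of the searched motifs.
Aqp5: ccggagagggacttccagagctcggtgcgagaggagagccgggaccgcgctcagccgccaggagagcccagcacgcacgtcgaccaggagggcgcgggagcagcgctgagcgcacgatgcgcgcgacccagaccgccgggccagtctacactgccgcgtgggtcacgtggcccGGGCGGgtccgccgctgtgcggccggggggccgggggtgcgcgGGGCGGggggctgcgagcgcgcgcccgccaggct
Scnn1g: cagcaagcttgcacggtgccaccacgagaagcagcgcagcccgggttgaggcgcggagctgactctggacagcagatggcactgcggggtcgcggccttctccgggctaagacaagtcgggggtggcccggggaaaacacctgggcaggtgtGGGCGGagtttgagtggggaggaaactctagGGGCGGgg
Scnn1b: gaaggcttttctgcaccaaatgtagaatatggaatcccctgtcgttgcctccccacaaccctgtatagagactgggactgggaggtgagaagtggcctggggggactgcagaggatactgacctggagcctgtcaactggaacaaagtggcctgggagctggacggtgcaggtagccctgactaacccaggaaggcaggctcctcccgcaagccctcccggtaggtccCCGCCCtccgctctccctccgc
Atp1b1: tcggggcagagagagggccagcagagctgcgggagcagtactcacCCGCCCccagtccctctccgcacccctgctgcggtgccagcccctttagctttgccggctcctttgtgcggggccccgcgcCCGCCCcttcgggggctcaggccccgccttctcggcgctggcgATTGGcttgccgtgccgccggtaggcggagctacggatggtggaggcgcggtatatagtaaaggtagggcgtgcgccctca

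Both strands of these stretches, and of the same stretch of Aqp1, Aqp3 and Cftr, were searched for 5 motifs; promoters of Scnn1a and Aqp4 were not used here. The GC box, spelled GGGCGG, stood in each of the 7 genes and in 32.7% of 32817 mouse promoters of 250 bases. Aqp5 and Scnn1g held 2 GC boxes each on the strand of the gene, and Scnn1b held 1 on the opposite strand, 17 to 22 bases before the start. Atp1b1 held 2 on the opposite strand and, also there, 1 match of the CCAAT motif, which 33.8% of promoters held. A TATA box, spelled TATAAA, was found in Aqp3 alone among the 7, against 12.4% of promoters. None of the 7 held the AP-1 motif, spelled TGANTCA, which 6.75% of promoters held. The half-site of the glucocorticoid receptor, spelled AGAACA, was likewise in none of the 7 and in 16.1% of promoters. No matches overlapped in the promoters printed, and GC boxes stand in Scnn1b as well as in Aqp5, Scnn1g and Atp1b1.

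Atp1b1, the beta subunit that carries the sodium pump to the cell membrane, had its 4 day 7 arrays below its 4 day 1 arrays. It read 5.93 and 6.01 in SWCNT day 1, 5.48 and 5.32 in PF68 day 1, 4.60 and 4.66 in SWCNT day 7 and 4.21 and 4.39 in PF68 day 7. On each day both SWCNT arrays lay above both PF68 arrays. The difference did not pass on either day, at 0.57 ± 0.12 on day 1 (95% interval 0.27 to 0.87; adjusted p = 0.0916) and 0.33 ± 0.12 on day 7 (95% interval 0.03 to 0.64; adjusted p = 0.188). After spike scaling the day 7 difference was 0.86 and passed (adjusted p = 0.00843), and the change between the days, -0.24 as deposited, turned to 0.51.

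Its other 4 probe sets gave differing sizes, and in some cases another sign. Probe set 1451152_a_at read 5.13 and 4.89 in SWCNT day 1, 5.19 and 5.22 in PF68 day 1, 5.02 and 4.87 in SWCNT day 7 and 3.86 and 4.11 in PF68 day 7. Here the PF68 day 7 arrays stood alone and the other groups lay close together. On day 1 the 4 gave 0.69 (1418453_a_at), 0.42 (1455949_at), 0.22 (1423890_x_at) and -0.19 (1451152_a_at), and on day 7 they gave 0.42, -0.10, 0.80 and 0.96 in that order. None passed over all probe sets tested, with adjusted p of 0.0883 for the first on day 1 and 0.0643 for each of the last 2 on day 7. Probe set 1455949_at lies near the array median.

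**Figure D3:**
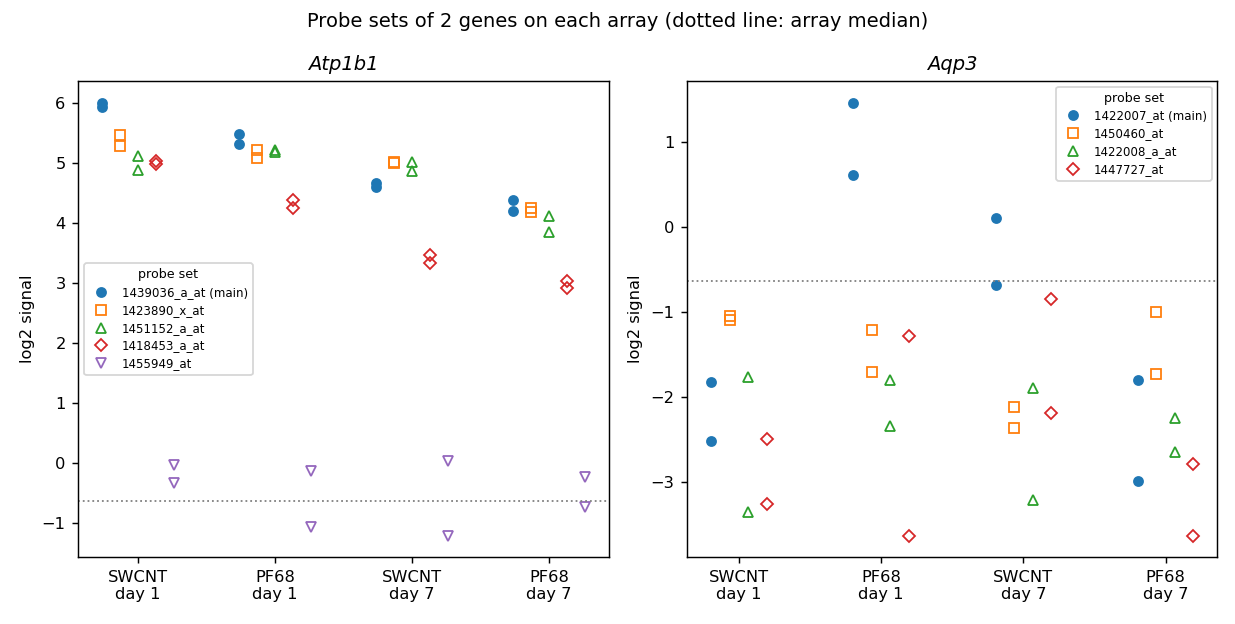
Log2 signal (y axis) of each probe set of Atp1b1 and of Aqp3 on the 8 arrays, in the groups SWCNT day 1, PF68 day 1, SWCNT day 7 and PF68 day 7 (x axis). The 4 Atp1b1 probe sets far above the array median are lowest in PF68 day 7 and differ in SWCNT day 7, and the other Aqp3 probe sets stay below the array median of -0.628 while the main one reaches 1.47 in PF68 day 1.

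Cftr, the chloride channel of airway and alveolar epithelium, did not pass the test between the treatments on either day. It read 0.61 and 0.31 in SWCNT day 1, 0.92 and 0.63 in PF68 day 1, 1.13 and 1.04 in SWCNT day 7 and 1.40 and 1.04 in PF68 day 7. The groups overlapped on day 7 and lay narrowly apart on day 1. Its difference was -0.31 ± 0.19 on day 1 (95% interval -0.78 to 0.15; adjusted p = 0.45) and -0.13 ± 0.19 on day 7 (95% interval -0.60 to 0.34; adjusted p = 0.72; 0.40 scaled to the spikes). A second Cftr probe set below the median on all arrays gave 1.39 and 0.56.

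Between day 7 and day 1 more of these genes changed, as did more genes in all. These contrasts use the same arrays as those between treatments and are not independent of them. In SWCNT lungs Aqp5, Scnn1a, Scnn1g and Atp1b1 fell and 0 of the 9 rose, where 16.3% of all genes were called, 9.59% higher and 6.70% lower. The median difference of the 9 was -0.64, beside 0.09 over all genes. In PF68 lungs Aqp1, Aqp3 and Atp1b1 fell and Scnn1b rose, where 17.7% of all genes were called, 8.86% in each direction. Aqp3 was tested through its 2 high PF68 day 1 arrays, and without it 2 of the other 8 fell. The median difference of the 9 was -0.24, beside 0.04 over all genes. Scaled to the spikes, the medians of the 9 were -0.48 in SWCNT lungs and -0.84 in PF68 lungs, so their order was reversed. The median gene then differed by 0.24 and -0.56. Day 7 and day 1 arrays lay apart in 8 of the 9 genes in SWCNT lungs and in 7 of the 9 in PF68 lungs, beside 62.8% and 61.1% of all genes.

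Atp1b1 was the gene called in both treatments, lower on day 7 by 1.34 (-1.34 ± 0.12; adjusted p = 0.00622) in SWCNT lungs and by 1.10 (-1.10 ± 0.12; adjusted p = 0.00885) in PF68 lungs. In PF68 lungs 4 of its 5 probe sets fell, by 0.94 to 1.34 log2 units, and the one near the array median gave 0.11. In SWCNT lungs 2 of its 5 fell (-1.34 and -1.61), while the others gave -0.36, -0.06 and -0.41. The call in SWCNT lungs was lost without SWCNT day 7 replicate 2 (adjusted p = 0.0543), and that in PF68 lungs without PF68 day 1 replicate 1 (0.0612) or 2 (0.0681).

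The apical channel genes Aqp5, Scnn1a and Scnn1g were called in SWCNT lungs. Aqp5 was lower on day 7 by 0.75 (-0.75 ± 0.11; adjusted p = 0.0125) in SWCNT lungs, against a difference of -0.24 ± 0.11 (adjusted p = 0.188) in PF68 lungs. For Scnn1a the SWCNT difference was -0.99 ± 0.15 (adjusted p = 0.0125) and the PF68 difference -0.08 ± 0.15 (adjusted p = 0.737). Scnn1g differed by -0.64 ± 0.11 (adjusted p = 0.0191) in SWCNT lungs and by 0.00 ± 0.11 (adjusted p = 0.993) in PF68 lungs. The tests of these gaps between the treatments are those given above for the change of the SWCNT effect, and none passed. Leaving out any 1 of the 4 SWCNT arrays ended each of these 3 calls, with adjusted p of 0.0603 to 0.106. Scaled to the spikes, the PF68 differences of Aqp5 (-0.84), Scnn1a (-0.67) and Scnn1g (-0.59) also passed, with adjusted p of 0.0052, 0.0112 and 0.00863.

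In PF68 lungs Scnn1b was higher on day 7 by 0.84 ± 0.14, or 1.79-fold (adjusted p = 0.0165), against a difference of 0.01 ± 0.14 (adjusted p = 0.959) in SWCNT lungs. Scaled to the spikes the PF68 difference was 0.25 (adjusted p = 0.183). The call was also lost without any 1 of the 4 PF68 arrays (adjusted p = 0.0527 to 0.0887). Of 10 markers of club and airway secretory cells 4 rose and 0 fell in PF68 lungs, where 8.86% of all genes moved each way. Their median was 0.39 (-0.20 scaled to the spikes). In SWCNT lungs 1 rose and 3 fell, where 9.59% of all genes rose and 6.70% fell, with a median of -0.03 (0.13 scaled). On day 1, 2 were higher and 1 lower in SWCNT than in PF68 lungs, where 0.931% and 1.23% of all genes were. The median was 0.03 (-0.19 scaled). In SWCNT against PF68 lungs on day 7, 3 of 10 were lower and 0 higher, with a median of -0.34 (0.19 scaled), where 0.78% of all genes were lower. Their summed signal was 838 to 892 in SWCNT day 1, 859 to 862 in PF68 day 1, 872 to 880 in SWCNT day 7 and 1003 to 1035 in PF68 day 7, and their part in the levels of Scnn1b was not tested. Muc5ac, 1 of these 10 markers, lay below the array median on both arrays of SWCNT day 1 and of PF68 day 1. It entered the tests through day 7 arrays, so its differences between the days support nothing.

 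Aqp1 fell by 0.58 (-0.58 ± 0.11; adjusted p = 0.0221) in PF68 lungs and differed by -0.39 ± 0.11 (adjusted p = 0.0616) in SWCNT lungs. Its PF68 call was lost without either PF68 day 1 array, either SWCNT day 7 array or PF68 day 7 replicate 1 (adjusted p = 0.0504 to 0.11). For Aqp3, which passed the filter through its high PF68 day 1 arrays, the PF68 difference was -3.43 ± 0.54 (adjusted p = 0.0147; -1.67 with values floored at the array median) and the SWCNT difference 1.88 ± 0.54 (adjusted p = 0.0674). Without PF68 day 1 replicate 1 or 2 its adjusted p in PF68 lungs was 0.0623 or 0.0847, and its other probe sets gave 1.36 (1447727_at), 0.01 (1422008_a_at) and -1.17 (1450460_at) in SWCNT lungs and -0.76, -0.38 and 0.10 in PF68 lungs. Aqp4 and Cftr passed in neither treatment, at -0.64 ± 0.20 and 0.63 ± 0.19 in SWCNT lungs and -0.35 ± 0.20 and 0.45 ± 0.19 in PF68 lungs. Scaled to the spikes, Aqp4 passed in PF68 lungs (adjusted p = 0.0106), Cftr and Aqp3 passed in SWCNT lungs (adjusted p = 0.0351 and 0.0424), and the PF68 difference of Cftr turned to -0.15.

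**Figure D4:**
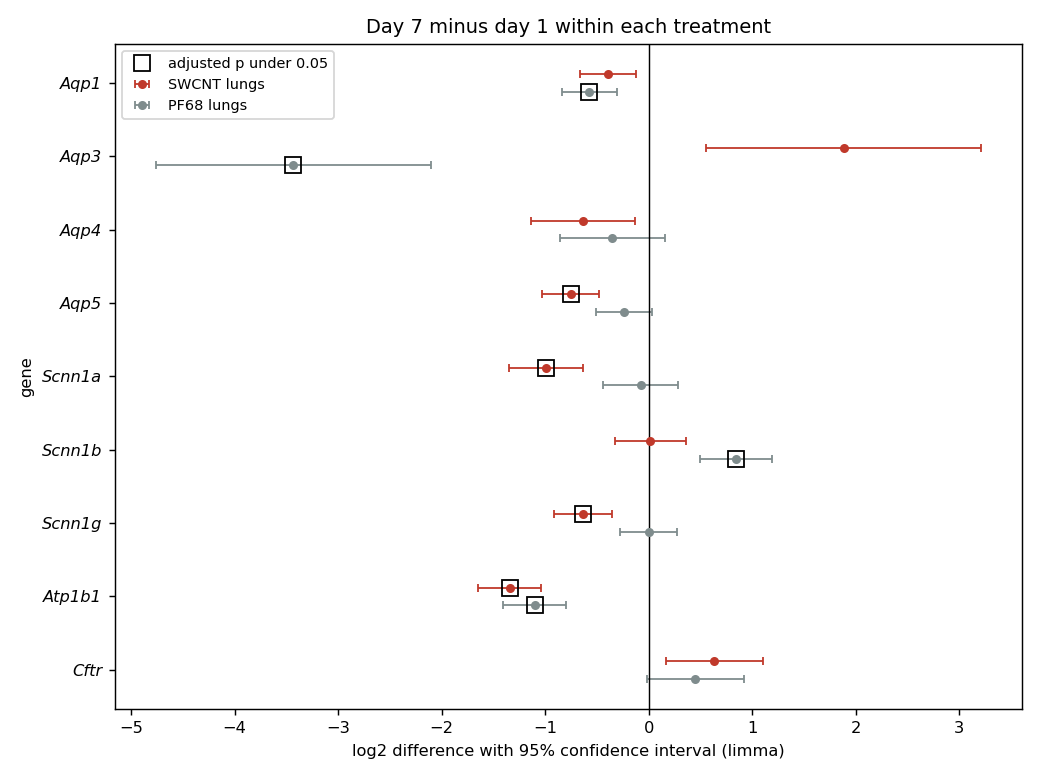
Day 7 minus day 1 log2 difference (x axis) of the 9 genes (y axis) within SWCNT lungs and within PF68 lungs, with 95% confidence intervals of the limma model; squares mark an adjusted p under 0.05. Atp1b1 carries a square in both (-1.34 and -1.10), Aqp5, Scnn1a and Scnn1g in SWCNT lungs, and Aqp1, Aqp3 and Scnn1b in PF68 lungs.

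RNA quality and cell markers moved with these day contrasts. The 3′ to 5′ gap of actin given above was higher on all 4 day 7 arrays than on all 4 day 1 arrays, as was that of Gapdh (2.11 to 2.52 against 0.68 to 1.05), and its part in the day differences was not tested. Day 7 minus day 1, the spikes differed by -0.15 in SWCNT lungs and 0.60 in PF68 lungs, and with scaling to them the median gene differed by 0.24 and -0.56. In SWCNT lungs 4 of 12 alveolar type 1 markers, 1 of 11 alveolar type 2 markers and 5 of 12 endothelial markers fell, with 0, 3 and 0 higher and medians of -0.40, -0.16 and -0.47. In PF68 lungs 2, 1 and 3 of these fell and 2, 1 and 0 rose, with medians of -0.19, -0.10 and -0.20. These counts stand beside the 6.70% of all genes that fell and 9.59% that rose in SWCNT lungs and the 8.86% each way in PF68 lungs. Scaled to the spikes, the 3 medians were -0.25, -0.01 and -0.32 in SWCNT lungs. In PF68 lungs they were then -0.79, -0.69 and -0.80, which reverses the order of the treatments. Of other lists, 8 of 10 cardiac, 7 of 8 smooth muscle and 5 of 5 neutrophil markers fell in SWCNT lungs, with medians of -1.47, -0.78 and -1.63 and 0 higher, against 5, 2 and 0 that fell in PF68 lungs, with medians of -0.57, -0.16 and -0.05. Scaled to the spikes, these medians were -1.32, -0.63 and -1.48 in SWCNT lungs and -1.16, -0.75 and -0.65 in PF68 lungs. The neutrophil marker Cxcr2 lay below the array median on both arrays of every group but SWCNT day 1. The cardiac marker Myl2 lay below it on both arrays of SWCNT day 7 and of PF68 day 7. Each entered the tests through arrays where it is high, so their direction between the days supports nothing. Of 8 macrophage markers 5 rose and 1 fell in SWCNT lungs (median 0.48), against 0 and 2 in PF68 lungs (median -0.07). The 8 ciliated airway markers, with 2 higher in SWCNT lungs and 3 higher in PF68 lungs, had medians of 0.53 and 0.68 (0.68 and 0.09 scaled to the spikes). Against PF68, 0 of 12 alveolar type 1 markers were called by limma on day 1 (4 at an unadjusted p under 0.05) and 1, Pdpn (-0.66 ± 0.10; -0.13 and not called with spike scaling), on day 7. Of alveolar type 2 markers Lpcat1 (-0.78 ± 0.11) was lower on day 1 and Sftpb (0.66 ± 0.11) higher on day 7, and 0 of 12 endothelial markers were called on either day (4 at an unadjusted p under 0.05 on each).

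Among the 9 genes, the order of the group levels took several forms. Aqp5, Scnn1a and Atp1b1 ran highest in SWCNT day 1, followed by PF68 day 1, with SWCNT day 7 lowest for Aqp5 and Scnn1a and PF68 day 7 lowest for Atp1b1. In Scnn1a the middle groups, PF68 day 1 and PF68 day 7, overlapped. Aqp4 had its levels in both SWCNT groups above those in both PF68 groups, the 1 member ordered by treatment before day. Cftr had SWCNT day 1 lowest and PF68 day 7 highest, and its day 7 groups overlapped. Aqp1 and Aqp3 had PF68 day 1 at the top, and the lowest pair of groups overlapped in both.

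The route has further parts, and 35 of 42 other genes of fluid and ion transport in lung were tested. In SWCNT against PF68 lungs 1 of the 35 rose on each day, 0 fell and 34 were not called, beside the shares of all genes given above. Their median was -0.08 on day 1 and 0.10 on day 7 (-0.30 and 0.63 scaled to the spikes). The called gene was Slc4a4, a sodium bicarbonate cotransporter, on both days. Its signal was 1.26 and 1.16 in SWCNT day 1, 0.28 and 0.26 in PF68 day 1, 0.46 and 0.61 in SWCNT day 7 and -0.50 and -0.38 in PF68 day 7. The difference was 0.94 ± 0.12 on day 1 (adjusted p = 0.0236) and 0.97 ± 0.12 on day 7 (adjusted p = 0.0305), and scaling to the spikes left both above 0 (0.72 and 1.50). Its 2 other probe sets that passed the filter gave 0.55 and 0.87 on day 1 and -0.35 and 0.30 on day 7. The 7 other aquaporins had a median difference of -0.63 on day 1 and -0.31 on day 7 (-0.85 and 0.22 scaled to the spikes). Limma called 0 of them (0 and 1 at an unadjusted p under 0.05), and up to 3 lay below the array median on both arrays of a group. The day 1 median is the value of Aqp6, and that of day 7 is the value of Aqp7. Both genes reached the array median on PF68 arrays alone, so these medians are a description and support nothing.

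**Figure D5:**
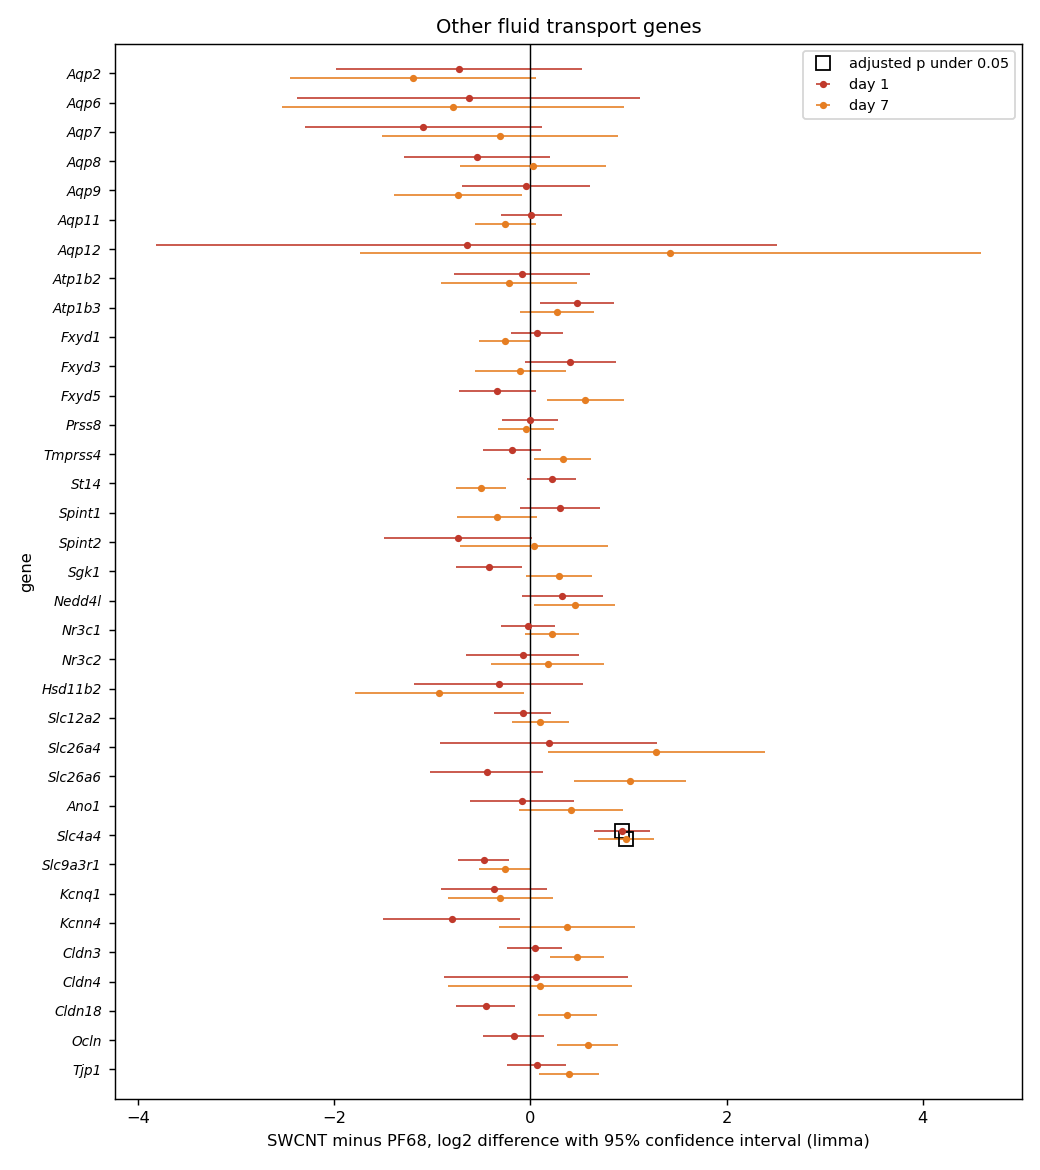
SWCNT minus PF68 log2 difference (x axis) on day 1 and on day 7 of the 35 other fluid and ion transport genes tested (y axis), ordered by role; horizontal lines are 95% confidence intervals of the limma model and squares mark an adjusted p under 0.05. Slc4a4 carries a square on both days (0.94 and 0.97), and the other 34 genes carry none.

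Between the days of SWCNT lungs 3 of the 35 rose and 5 fell, where 9.59% of all genes rose and 6.70% fell, with a median of -0.05 (0.11 scaled to the spikes). The largest changes were those of Kcnn4 (1.72 ± 0.28; adjusted p = 0.0161), a calcium-activated potassium channel, and Spint2 (1.49 ± 0.31; adjusted p = 0.0286), an inhibitor of the serine proteases that cleave the sodium channel. Fxyd1, a regulator of the sodium pump, differed by -0.80 ± 0.11 (adjusted p = 0.0104), Slc9a3r1, a scaffold that binds Cftr, by 0.68 ± 0.11 (adjusted p = 0.0143) and Slc4a4 by -0.68 ± 0.12 (adjusted p = 0.0175). In PF68 lungs 3 of the 35 rose and 12 fell, where 8.86% of all genes moved each way, with a median of -0.16 (-0.76 scaled to the spikes). Sgk1, a kinase that keeps the sodium channel at the membrane, fell by 0.97 (-0.97 ± 0.14; adjusted p = 0.0115), and Nr3c1, the glucocorticoid receptor, by 0.83 (-0.83 ± 0.11; adjusted p = 0.0109). Ano1, a calcium-activated chloride channel, fell by 0.94 (-0.94 ± 0.21; adjusted p = 0.0354). Of 5 tight junction genes 4 fell in PF68 lungs, among them Tjp1 (-0.86 ± 0.12; adjusted p = 0.0119) and Ocln (-0.83 ± 0.13; adjusted p = 0.0137), against 1 of 5 in SWCNT lungs. Further probe sets that passed the filter differed in size or sign. In SWCNT lungs they gave 0.18 for Spint2, 1.33 for Kcnn4, 0.64 and -0.55 for Slc9a3r1 and -0.07 and -0.90 for Slc4a4. In PF68 lungs they gave 0.27 for Ocln, -0.62 for Ano1 and values from -0.19 to 0.48 for Nr3c1. Between the days the SWCNT effect changed in 0 of the 35 by the adjusted p of limma and in 10 at an unadjusted p under 0.05, where 20.8% of all genes passed, and the largest values were 2.08 ± 1.82 for Aqp12 and 1.46 ± 0.33 for Slc26a6. Slc26a6 reached the array median only on both SWCNT day 7 arrays and on PF68 day 1 replicate 1. As it entered the tests through groups where it is high, its change is a description and supports nothing.

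For the 8 members called in at least 1 contrast, the genes most alike over the 8 arrays were found by Pearson's r among 13116 genes. The arrays form 4 groups of 2, so a high r asks only for a like order of 4 levels, and it is given as a description. Atp1b1 was most like Slco2a1, the prostaglandin transporter (r = 0.998, rho = 1), and Aqp5 most like Podxl, a sialomucin of endothelium and podocytes (r = 0.995, rho = 0.976). Scnn1g was most like Fkbp5, a co-chaperone of steroid receptors (r = 0.994, rho = 0.976), and Scnn1a most like Clic3 (r = 0.986, rho = 0.929), which is also on the alveolar type 1 list. Aqp1 was most like Pdlim2 (r = 0.996, rho = 0.976) and Scnn1b most like Lypd2 (r = 0.986, rho = 0.929). Aqp4 was most like Acvr1b (r = 0.983), with Retnla (0.969) and Clca3a1 (0.965) next. The gene most like Aqp3 was the zinc importer Slc39a4 (r = 0.993, rho = 1).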

How the data were processed

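Total RNA of 8 lung samples was labelled with biotin and hybridized to Affymetrix arrays of 1 colour, per the labels' protocols. The deposited values were taken as log2 signals. The submitters' processing notes name RMA without version or settings; log base and offset are not given in the sources. Sorted values were identical on the 8 arrays (largest SD 0) and ran from -5.88 to 8.31, so differences are relative to a common distribution. Of 45101 probe sets, 64 control probe sets and 8 with a missing value were left out. Symbols were taken from GEO's annotation of the platform: 34939 probe sets had 1 symbol, 931 several and 9159 were not listed.

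A probe set entered the test when 2 or more arrays had it at the array median or higher, and the one with the highest mean stood for its gene. Means of the 4 groups were fitted with limma 3.58.1 in R 4.3.3 (lmFit, then eBayes; degrees of freedom were 4 residual and 1.81 prior). Benjamini-Hochberg adjustment of p-values ran over all 13854 genes, at a threshold of 0.05; values of further probe sets were adjusted over 23308 probe sets. The standard error after ± uses the moderated variance. The procedure was also run on simulated data with normal noise of a common spread per signal level. That run does not bear on how the calls depend on the variance model. Scaling to the spikes subtracts each array's mean of 18 spike probe sets.

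The members, the further gene lists and the markers were chosen with earlier results of these data known. All 9 members were to be named; of other lists, the genes called in a contrast, at most 5 with the largest differences, or otherwise the 2 with the largest difference; and for each called member the 3 genes with the highest r. Of the marker lists mostly counts and medians are printed, and for most members only the first of the 3 alike genes. The arrays of 1 number in different groups did not deviate together (r of -0.0061 to 0.011), so replicate numbers were not taken as pairs. Alternatives covered the filter, scaling, probe set, floor, variance model, replicate block, arrays in the fit and leaving out arrays.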

Additional observations from a re-analysis of the deposited data

Results flagged for a closer look

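The difference between SWCNT and PF68 lungs in Aqp3 changed between the days by 5.31 ± 0.76 (log2, limma, adjusted p = 0.0388), from a test of the change itself. The difference was 2.11 on day 7 and -3.20 on day 1. With values floored at the array median the change was 2.04 (adjusted p = 0.0641), and the other probe sets, below the median on all arrays, gave 2.12 (1447727_at), 0.40 (1422008_a_at) and -1.27 (1450460_at). Aqp3 was tested because both PF68 day 1 arrays and 1 SWCNT day 7 array reached that median. Groups of 2 arrays are too small to test for an outlying array.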

How the results depend on the processing

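The SWCNT minus PF68 call count of the 9 genes on day 1 (1 as reported) was 0 with the replicate block, without a filter, with every probe set tested and with the arrays of the contrast only, 2 with a filter on all 8 arrays, spike scaling or array weights, and 4 with a variance trend and robust fitting; without 1 array it was 0 to 1. On day 7 (0 as reported) it was 2 with the filter on all 8 arrays or values floored at the median, 4 with spike scaling and 7 with the variance trend, and 0 without any 1 array. Between the days (1 as reported) it was 0 with the replicate block, no filter, every probe set tested, floored values or without any 1 array, 3 with the filter on all 8 arrays or spike scaling and 5 with the variance trend. For day 7 against day 1 (4 as reported in each treatment) it was 7 with the filter on all 8 arrays, 0 with the arrays of the contrast only and 0 to 5 without 1 array in SWCNT lungs, and 7 with spike scaling, 0 with the arrays of the contrast only and 0 to 4 without 1 array in PF68 lungs. Over all genes, the 300 calls of day 1 ranged between 30 and 1254, the 302 of day 7 between 0 and 5893, the 324 between the days between 3 and 6127, the 2257 of SWCNT lungs over time between 7 and 3411 and the 2455 of PF68 lungs between 0 and 5928; the cause was not tested, except that fewer arrays or genes enter some fits. Leaving out both arrays of the day 1 group that a contrast does not use (chosen after seeing the data) kept the member counts at 0 on day 7 and 4 in each day contrast. The replicate block gave Aqp4 on day 1 an adjusted p of 0.105 and the Aqp3 change between the days 0.0795; it brought Cftr in SWCNT lungs between day 7 and day 1 past the threshold (adjusted p = 0.0413) and changed no other call among the 9 genes in these 5 contrasts.

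Spike scaling turned Scnn1b on day 1 (-0.17), Aqp1 (0.53), Aqp5 (0.27), Scnn1a (0.10), Scnn1g (0.13) and Cftr (0.40) on day 7, and Aqp4 (0.46), Aqp5 (0.23), Scnn1g (0.11) and Atp1b1 (0.51) between the days. It turned Scnn1g (-0.59) and Cftr (-0.15) in PF68 lungs between day 7 and day 1. Other probe sets turned Aqp3 (0.39), Atp1b1 (-0.19) and Cftr (1.39) on day 1, Aqp3 (-0.10 and -0.88), Aqp4 (-0.14), Atp1b1 (-0.10) and Cftr (0.56) on day 7, and Aqp3 (-1.27), Atp1b1 (0.57 and 1.15) and Cftr (-0.83) between the days. For day 7 against day 1 they turned Aqp3 (-1.17) and Aqp4 (0.39) in SWCNT lungs, and Aqp3 (0.10), Aqp4 (0.42) and Atp1b1 (0.11) in PF68 lungs. Without 1 array the sign varied for Scnn1b on day 1 (-0.12 to 0.21), Aqp1 (-0.079 to 0.077) and Cftr (-0.31 to 0.049) on day 7, Aqp4 between the days (-0.57 to 0.0014), Scnn1b in SWCNT lungs (-0.15 to 0.18), and Scnn1a (-0.21 to 0.053) and Scnn1g (-0.054 to 0.058) in PF68 lungs. Signals below the array median limit what can be said of Aqp3.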
